A study of Homo sapiens with 12 samples.

Results

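Transcripts of 10 alpha and beta tubulin genes were followed in the established human renal carcinoma line 786-O after treatment with everolimus, SGI-1027 or both. The members were taken by gene symbol from the deposited count table: the alpha isotypes TUBA1A, TUBA1B, TUBA1C and TUBA4A, and the beta isotypes TUBB, TUBB2A, TUBB2B, TUBB3, TUBB4B and TUBB6. They were chosen by their measured changes against DMSO, so those changes are given as a description with no test. The table held 17085 genes, of which 12841 passed the filter on low counts, and all 10 members were among them.

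Everolimus is an inhibitor of the mTOR kinase complex 1, and SGI-1027 is an inhibitor of DNA methyltransferases. The study asked how the drugs act together on these cells. The 4 groups were vehicle (DMSO), everolimus alone (EVER), SGI-1027 alone (SGI) and the combination (COMB), each with 3 libraries and 24 h of treatment of wild-type 786-O cells. Every group shared the same line, and the labels do not state if libraries were grown as independent cultures, so the p-values measure only the spread between these libraries.

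The treatment labels give 5 µM everolimus for both EVER and COMB and 1.5 µM SGI-1027 for both SGI and COMB. The protocol text instead gives 10 µM for everolimus alone and 5 µM in the combination, while the study's methods, like the treatment labels, name a single everolimus dose. If the doses did differ, COMB against EVER, SGI against EVER and the interaction cannot be told apart from that difference. Library totals were between 37046231 and 41516976 counts. The renal and line markers PAX8, VIM and KRT18 were present in every library, with lowest FPKM values of 77.6, 2659 and 220.1. The other markers looked at, PAX2, EPAS1, CDH6, NNMT and CP, had lower minima of 3.01, 26.9, 36.0, 74.8 and 3.91 FPKM. The leukocyte and endothelial markers PTPRC, CD3E, PECAM1 and CDH5 reached at most 1, 1, 12 and 3 counts. DMSO replicate 1 and SGI replicate 3 stood apart from the other libraries of their groups (chi-square per gene of 10.4 and 13.3, and of 16.6 and 16.3, against at most 5.53 in the other pairs), so results are also given without them.

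Microtubules are built from heterodimers of alpha and beta tubulin, and each partner is encoded by several genes, the isotypes, that differ mostly at the acidic C-terminal tail. Cells make the 2 partners together: the prefoldin and CCT chaperones fold the new chains and the tubulin cofactors join them. The messages are also regulated by their own product. When free dimers are in excess, TTC5 recognises the first residues of a nascent tubulin chain on the ribosome and brings about decay of the message, a process called tubulin autoregulation.

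The start of the coding sequence is shown because autoregulation reads its product. Sequences are from the principal transcripts of GENCODE v29 (GRCh38), printed 5′ to 3′, with the first 12 coding bases in capitals.
TUBA1A, TUBA1B and TUBA1C: ATGCGTGAGTGCatc
TUBA4A: ATGCGTGAATGCatc
TUBB and TUBB4B: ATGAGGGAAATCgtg
TUBB3 and TUBB6: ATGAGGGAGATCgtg
TUBB2A: ATGCGCGAGATCgtg
TUBB2B: ATGCGTGAGATCgtg
The 3 TUBA1 genes were identical here, and in every member the codon that follows the second encoded glutamate.

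The last 60 coding bases of TUBB2A and TUBB2B, with the stop codon, are shown for the most alike pair of the members. Capitals mark bases of TUBB2B that differ from TUBB2A when the sequences are aligned from the stop codon. Both lie in the last exon on the minus strand of GRCh38, at chr6:3153863-3153922 for TUBB2A and chr6:3224751-3224810 for TUBB2B.
TUBB2A: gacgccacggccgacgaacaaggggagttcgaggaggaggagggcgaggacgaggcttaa
TUBB2B: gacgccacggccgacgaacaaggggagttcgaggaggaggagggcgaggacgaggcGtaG
The pair differed at 2 of these bases.

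Over the whole coding sequence, TUBA1A and TUBA1B were 97.2% identical, with 38 of 1356 aligned positions not identical. TUBA1A and TUBA1C were 95.9% identical, TUBA1B and TUBA1C 96.8%, and TUBB2A and TUBB2B 98.1%. Alpha and beta genes shared only 51.9% to 54.0% of positions. Of all stretches of 100 bases in the principal transcript, 18.3% of TUBA1A, 37.2% of TUBA1B and 11.5% of TUBA1C also occurred in a transcript of another gene. The shares were 56.4% for TUBB2A, 46.2% for TUBB2B, and 0 of 1965 stretches for TUBB6. For TUBB3 the share was 89.0%, almost all of it with a gene of the annotation (AC092143.1) that overlaps TUBB3 on the same strand and is not among the symbols of the count table. In the same annotation the 5′ ends of TUBA1A and TUBA1C overlap on opposite strands, and PSMG4 overlaps TUBB2B on the opposite strand. So do AFG3L2 (2243 to 3560 counts a library) with TUBB6 and STK16 (763 to 983 counts) with TUBA4A. How shared reads were assigned and whether strand was used in counting are not given in the sources used here. Values of single TUBA1 and TUBB2 genes and of TUBB3, TUBB6 and TUBA4A are uncertain to that extent. Family sums are therefore given as well.

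The plot of the members by library gives CPM values, that is, counts scaled by library total and by the trimmed mean of M-values (TMM).

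**Figure D1:**
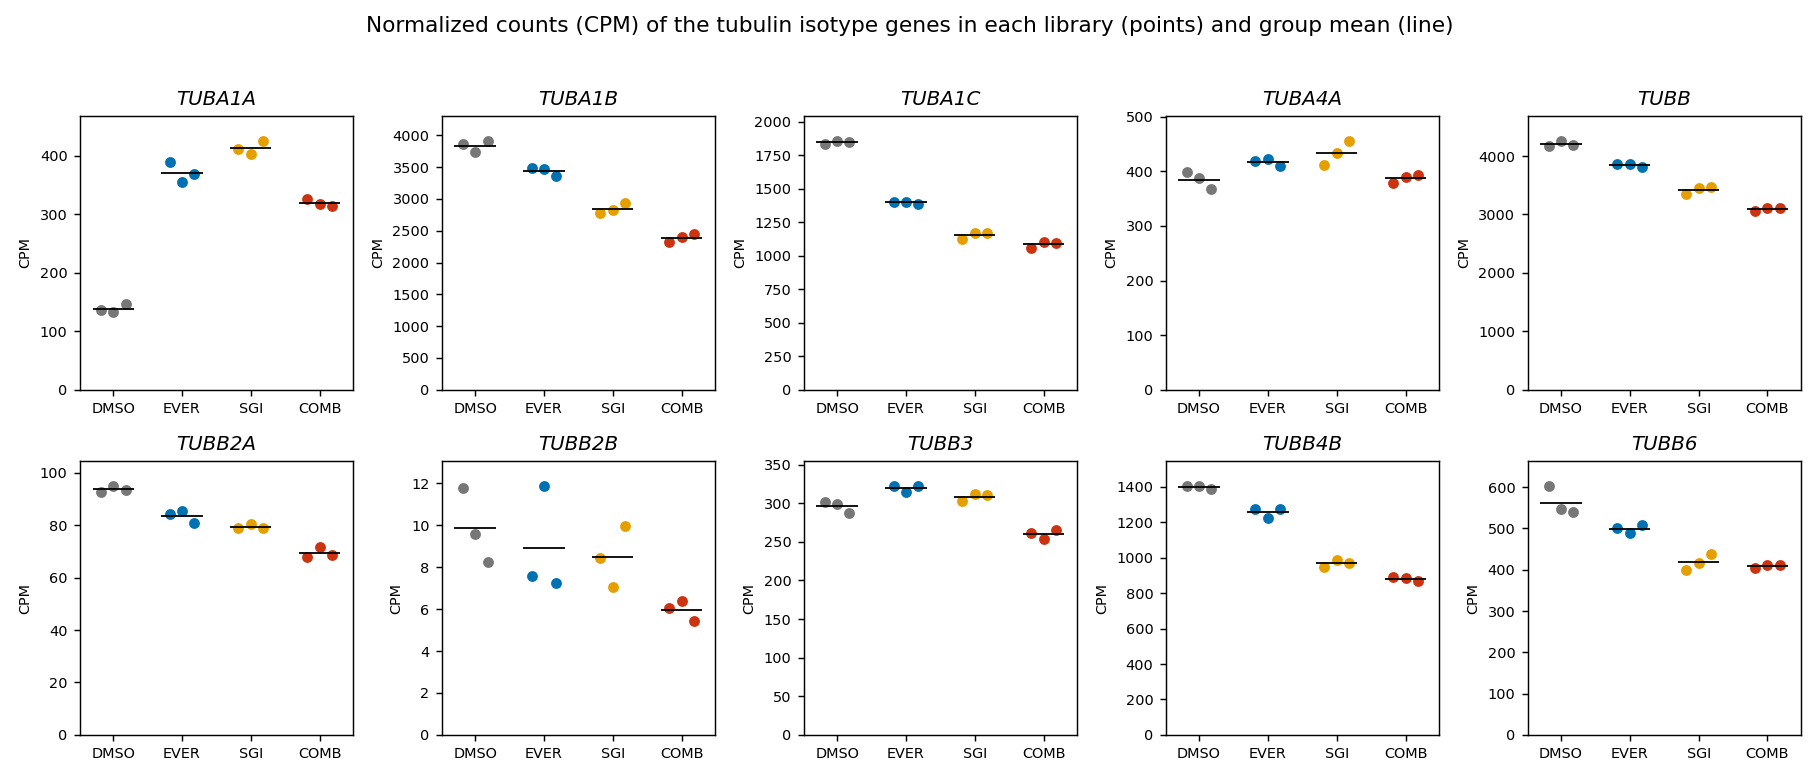
TMM-normalized CPM of the 10 tubulin genes in the 12 libraries; each panel is 1 gene with its own axis from 0, each point is 1 library and each line is the mean of the 3 libraries of a group. TUBA1A sits between 133 and 146 CPM in DMSO and between 315 and 425 CPM in the treated groups, while TUBA1B, TUBA1C, TUBB, TUBB2A, TUBB4B and TUBB6 lie below their DMSO libraries in every treated group.

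Among the alpha isotypes TUBA1A went up and TUBA1B and TUBA1C went down with every treatment. TUBA1A, best known as the main alpha isotype of developing neurons, had 137, 133 and 146 CPM in DMSO, 389, 356 and 369 CPM in EVER, 412, 404 and 425 CPM in SGI and 327, 317 and 315 CPM in COMB. All 9 treated libraries were above all 3 DMSO libraries, and COMB was the lowest of the treated groups with no overlap. The log2 fold changes against DMSO were 1.42 ± 0.04 (SE) in EVER, 1.58 ± 0.04 in SGI and 1.20 ± 0.04 in COMB. Ordered from the highest log2 fold change, TUBA1A was number 187 of the 12841 genes in EVER, 301 in SGI and 690 in COMB.

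TUBA1B, a ubiquitous isotype and the most abundant alpha gene here, had 3857, 3744 and 3912 CPM in DMSO, 3487, 3474 and 3368 CPM in EVER, 2776, 2829.7 and 2936 CPM in SGI and 2316, 2406 and 2455 CPM in COMB. The 4 groups did not overlap and followed the order DMSO, EVER, SGI, COMB. The log2 fold changes were -0.16 ± 0.03, -0.43 ± 0.03 and -0.68 ± 0.03 (SE) for EVER, SGI and COMB.

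TUBA1C, a broadly expressed isotype, had 1838, 1857 and 1846 CPM in DMSO, 1405, 1405 and 1389.5 CPM in EVER, 1129, 1172 and 1170.2 CPM in SGI and 1061, 1102 and 1096 CPM in COMB. Its groups were also apart from each other in the same order. The log2 fold changes were -0.40 ± 0.03, -0.67 ± 0.03 and -0.77 ± 0.03 (SE), each larger in size than that of TUBA1B.

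TUBA4A, which is made without the terminal tyrosine that other alpha chains carry, had 398, 387 and 368 CPM in DMSO, 418, 422 and 409.6 CPM in EVER, 412, 433 and 456 CPM in SGI and 379, 389 and 394 CPM in COMB. The EVER and SGI libraries were above the DMSO libraries and the COMB libraries overlapped them. Its log2 fold changes were small, at 0.12 ± 0.04, 0.17 ± 0.04 and 0.01 ± 0.04 (SE).

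The beta isotypes with the highest levels, TUBB, TUBB4B and TUBB6, went down with each treatment. TUBB, the ubiquitous class I beta isotype, had 4167, 4258 and 4186 CPM in DMSO, 3869.7, 3869 and 3821 CPM in EVER, 3351, 3446 and 3468 CPM in SGI and 3064, 3110.3 and 3106 CPM in COMB. No group overlapped another. The log2 fold changes were -0.13 ± 0.03, -0.30 ± 0.03 and -0.44 ± 0.03 (SE).

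TUBB4B, a widely expressed class IV isotype also used in cilia, had 1404, 1402 and 1386 CPM in DMSO, 1278, 1222 and 1273 CPM in EVER, 948, 986 and 970.1 CPM in SGI and 891, 887 and 867 CPM in COMB. The drop between EVER and SGI was wider than in TUBB, and no group overlapped another. Its log2 fold changes were -0.15 ± 0.03, -0.53 ± 0.03 and -0.66 ± 0.03 (SE).

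TUBB6, the class V isotype, had 603, 547 and 539 CPM in DMSO, 501, 488 and 508 CPM in EVER, 399, 417 and 438 CPM in SGI and 405, 411 and 412 CPM in COMB. DMSO replicate 1 was the highest of its group. The SGI and COMB libraries overlapped each other and lay below the other groups. The log2 fold changes were -0.17 ± 0.04, -0.43 ± 0.04 and -0.46 ± 0.04 (SE), and they were -0.12, -0.41 and -0.41 without DMSO replicate 1 and SGI replicate 3.

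The class II pair TUBB2A and TUBB2B, known for their abundance in neurons, was low in these cells. TUBB2A had 92.6, 94.9 and 93.5 CPM in DMSO, 84.5, 85.3 and 81.0 CPM in EVER, 78.9, 80.4 and 79.0 CPM in SGI and 68.1, 71.5 and 68.6 CPM in COMB. Its 4 groups did not overlap, and the log2 fold changes were -0.16 ± 0.04, -0.24 ± 0.04 and -0.43 ± 0.04 (SE).

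TUBB2B had 206 to 486 counts a library, and its CPM values were 11.8, 9.57 and 8.27 in DMSO, 7.57, 11.9 and 7.26 in EVER, 8.45, 7.04 and 9.98 in SGI and 6.07, 6.37 and 5.42 in COMB. COMB was below every other library, and DMSO, EVER and SGI overlapped. The SE of its log2 fold changes was the widest of the members: -0.15 ± 0.17, -0.22 ± 0.17 and -0.73 ± 0.17. Leaving out 1 library at a time gave -0.41 (without EVER replicate 2) to -0.0026 (without DMSO replicate 1) in EVER, -0.35 (without SGI replicate 3) to -0.071 (without DMSO replicate 1) in SGI, and -0.83 (without DMSO replicate 3) to -0.58 (without DMSO replicate 1) in COMB. Without DMSO replicate 1 and SGI replicate 3 the log2 fold change in COMB was -0.59.

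TUBB3, the class III isotype of neurons that some carcinomas also express, had 302, 299 and 288 CPM in DMSO, 322, 315 and 322 CPM in EVER, 303, 312 and 311 CPM in SGI and 262, 254 and 266 CPM in COMB. The single drugs lay above DMSO and COMB lay below it, with no overlap in either direction. The log2 fold changes were 0.11 ± 0.03, 0.06 ± 0.03 and -0.19 ± 0.03 (SE), so TUBB3 was the member whose direction differed between the single drugs and their combination.

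**Figure D2:**
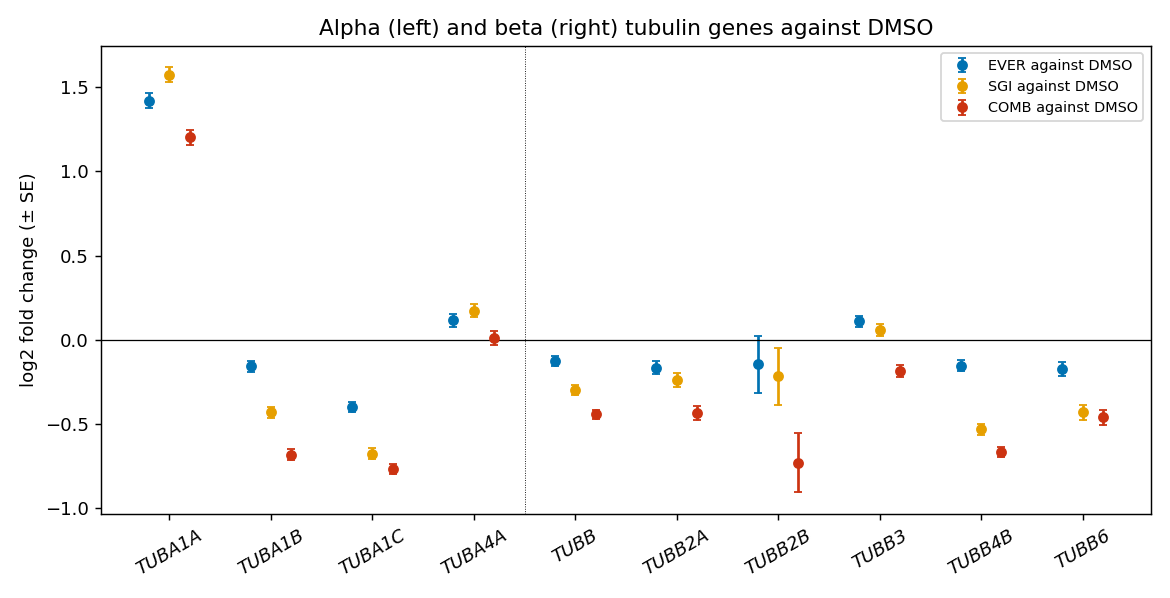
Log2 fold change of each tubulin gene against DMSO in EVER, SGI and COMB, from the fit of all 12 libraries; points are estimates, bars are ± SE, and the dotted line separates alpha (left) from beta (right) genes. TUBA1A stands at 1.20 to 1.58, and the remaining genes lie between -0.77 and 0.17.

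By the CPM of the libraries alone, 6 of the 10 members lay wholly below DMSO in EVER, 3 wholly above and 1 overlapped, with the same counts in SGI. One of the 3 above in SGI was TUBB3, which overlapped DMSO in FPKM. In COMB 8 lay below, 1 above (TUBA1A) and 1 overlapped (TUBA4A). Over all genes tested, edgeR called 27.2% higher and 29.2% lower in EVER, 32.0% higher and 30.6% lower in SGI, and 32.8% higher and 33.4% lower in COMB. A call by adjusted p is another measure than library overlap, and the share of all genes without overlap was not computed. The median log2 fold change of the members was -0.15 in EVER, -0.27 in SGI and -0.45 in COMB, beside 0.0013, 0.017 and 0.0074 over all genes tested. The members were picked with these contrasts known, so nothing is read from the counts. Without DMSO replicate 1 and SGI replicate 3, the log2 fold change of TUBB2B moved by up to 0.15 and that of every other member by at most 0.051. In these bulk libraries fewer cells that express a gene and less RNA of it per cell cannot be told apart.

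Because similar genes may share reads, the counts were also summed within each family. The alpha sum was 6230.1, 6121 and 6272 CPM in DMSO, 5700.03, 5657.5 and 5536 CPM in EVER, 4729, 4839 and 4988 CPM in SGI and 4082, 4214 and 4259 CPM in COMB. The beta sum was 6580.04, 6609.9 and 6501 CPM in DMSO, 6062, 5991 and 6012 CPM in EVER, 5089, 5248 and 5276 CPM in SGI and 4697, 4739.8 and 4725 CPM in COMB. Both sums separated the 4 groups with no overlap, in the order DMSO, EVER, SGI, COMB.

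The alpha sum decreased by 9.29% in EVER, decreased by 21.9% in SGI and decreased by 32.6% in COMB (log2 differences -0.14 ± 0.02, -0.36 ± 0.02 and -0.57 ± 0.02, SE, n = 3 against 3). The beta sum decreased by 8.25% in EVER, decreased by 20.7% in SGI and decreased by 28.1% in COMB (-0.12 ± 0.01, -0.33 ± 0.02 and -0.48 ± 0.01). All 10 genes together took 1.27% ± 0.015 (SD, n = 3) of all counts in DMSO, 1.16% ± 0.011 in EVER, 1.001% ± 0.016 in SGI and 0.899% ± 0.012 in COMB. Summing TUBB2A and TUBB2B alone, the most alike pair, gave log2 differences of -0.16, -0.24 and -0.46 in EVER, SGI and COMB. Summing TUBA1A, TUBA1B and TUBA1C alone, which also share stretches, gave -0.16, -0.40 and -0.62. The rise of TUBA1A was small beside this sum: its group mean went from 139 to 414 CPM in SGI, while that of TUBA1B went from 3838 to 2847 CPM.

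The ratio of the alpha to the beta sum was 0.946 ± 0.019 (SD, n = 3) in DMSO, 0.935 ± 0.013 in EVER, 0.932 ± 0.012 in SGI and 0.887 ± 0.016 in COMB. The EVER and SGI ratios overlapped those of DMSO. All COMB ratios (0.869, 0.889 and 0.902) were below all DMSO ratios (0.947, 0.926 and 0.965). On the FPKM scale, which divides by gene length, the ratio was 1.09 in DMSO, EVER and SGI and 1.03 in COMB.

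**Figure D3:**
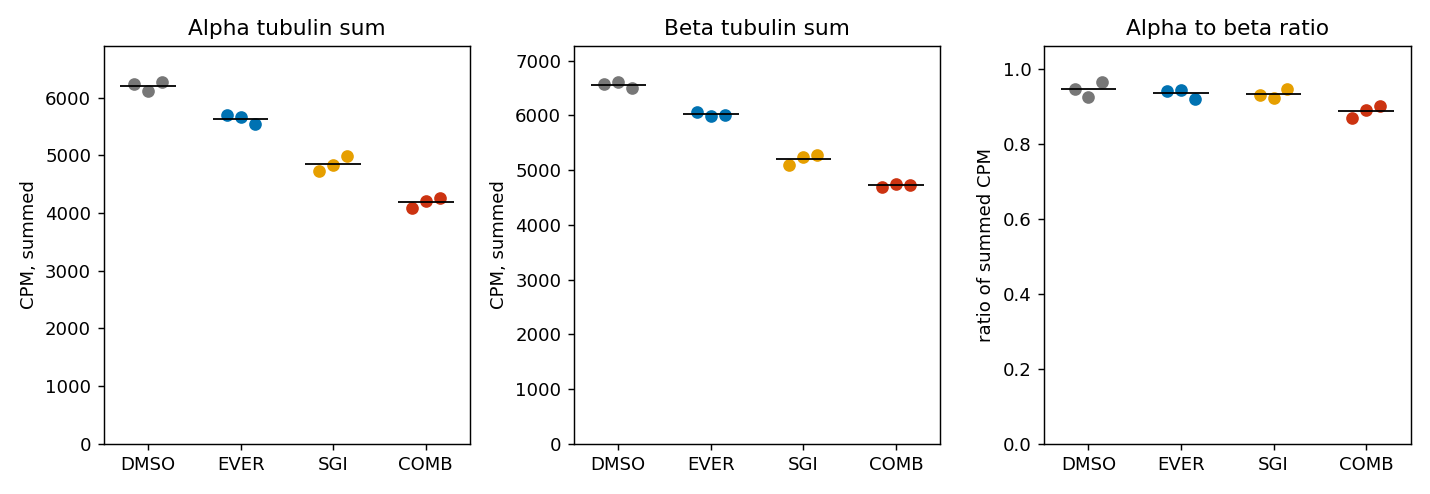
Summed CPM of the 4 alpha genes (left), of the 6 beta genes (middle) and their ratio (right) in each library; points are libraries, lines are means of the 3 libraries of a group, and every axis starts at 0. Both sums fall from DMSO through EVER and SGI to COMB without overlap, and the ratio is lower in COMB (0.869 to 0.902) than in DMSO (0.926 to 0.965).

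Levels of different genes were compared in FPKM. In DMSO the order was TUBA1B (2349 ± 57.7 FPKM, SD, n = 3), TUBB (1578 ± 15.1), TUBB4B (890.4), TUBA1C (558), TUBB6 (179), TUBB3 (146), TUBA4A (142), TUBA1A (61.9), TUBB2A (53.4) and TUBB2B (5.13 ± 0.974). TUBB3 and TUBA4A were the only neighbours in that order whose libraries overlapped. The first 4 genes kept their places in every group. TUBA1A moved from the eighth place in DMSO to the fifth in EVER and SGI, at 166 ± 6.43 and 184 ± 4.35 FPKM, and to the sixth in COMB at 144 ± 2.81 FPKM. In EVER its libraries overlapped those of TUBB6, and in COMB those of TUBA4A.

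Within the alpha family, the share of TUBA1A in the summed FPKM was 1.99% ± 0.068 (SD, n = 3) in DMSO, 5.81% ± 0.24 in EVER, 7.57% ± 0.16 in SGI and 6.86% ± 0.302 in COMB. The share of TUBA1B was 75.5% ± 0.46, 73.9% ± 0.25, 71.5% ± 0.12 and 70.5% ± 0.42 in the same order, and that of TUBA1C was 17.9%, 14.8%, 14.3% and 15.8%. TUBA4A held 4.57% ± 0.22 in DMSO and 6.89% ± 0.028 in COMB, a higher share at an almost equal level. The beta family was more even in its make-up. TUBB held 55.3% ± 0.53 in DMSO and 57.4% ± 0.33 in COMB, TUBB4B 31.2% ± 0.10 and 27.7% ± 0.41, TUBB3 5.10% ± 0.093 and 6.32% ± 0.16, and TUBB6 6.28% ± 0.37 and 6.44% ± 0.048.

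**Figure D4:**
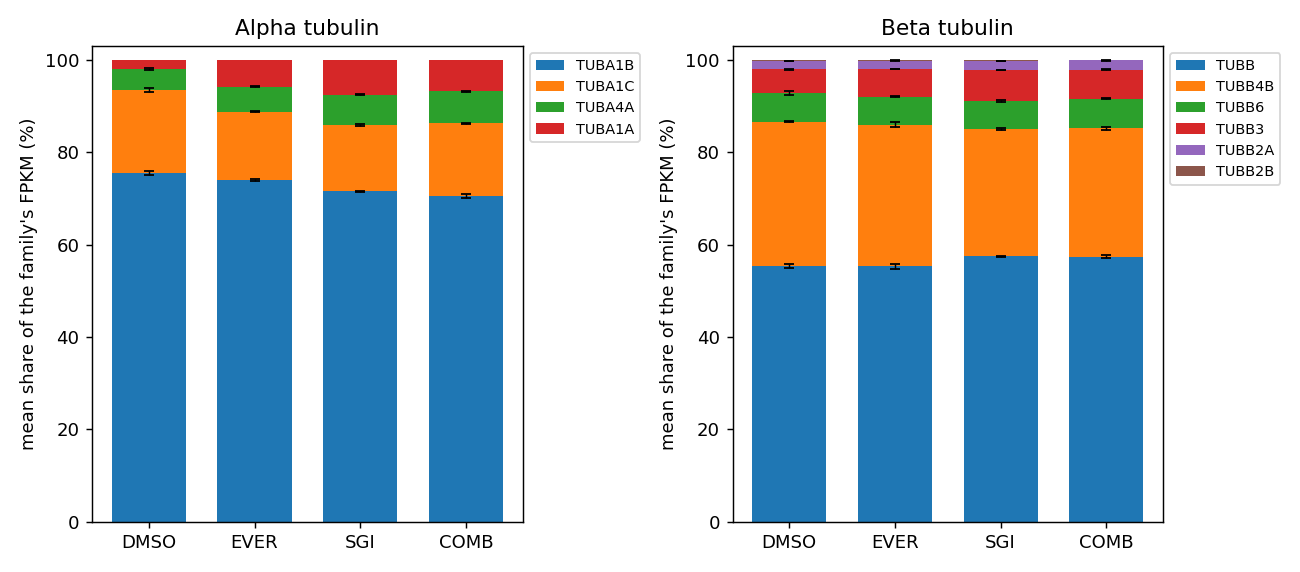
Mean share of each gene in the summed FPKM of the alpha (left) and beta (right) family by group; stacked bars are means of 3 libraries and the black bars at each boundary are ± SD of the gene below it. TUBA1A, at the top of the alpha bars, goes from 1.99% in DMSO to 7.57% in SGI, and TUBB4B goes from 31.2% to 27.6%.

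The comparisons between treated groups contrast no DMSO level, but the DMSO libraries were part of the fit and so entered the estimated spread and the p-values. Each log2 fold change equals the difference of the log2 changes by which the members were chosen. Its direction is therefore not independent of that choice. The comparisons were tested with edgeR's quasi-likelihood test, with p-values adjusted by the Benjamini-Hochberg method over all 12841 genes. Against EVER, COMB was lower in all 10 members, beside 19.2% of all genes called lower and 20.1% called higher. The largest changes that passed the test were in TUBB2B (log2 fold change -0.58 ± 0.18 SE, edgeR adjusted p = 0.0132), TUBA1B (-0.53 ± 0.03, adjusted p = 5.74e-10) and TUBB4B (-0.51 ± 0.03, adjusted p = 3.76e-10). The smallest was in TUBA4A (-0.11 ± 0.04, edgeR adjusted p = 0.0482), which missed the threshold in 14 of 23 other settings and without any single EVER or COMB library, with an edgeR adjusted p of up to 0.181 without COMB replicate 1. TUBB2B gave -0.32 without EVER replicate 2 (edgeR adjusted p = 0.14) and -0.52 without COMB replicate 3 (adjusted p = 0.0602).

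Against SGI, COMB was lower in 9 of 10 members, beside 10.2% of all genes called lower and 9.40% called higher. TUBA1A had a log2 fold change with a small p (-0.37 ± 0.04 SE, edgeR adjusted p = 4.01e-06), followed by TUBA1B (-0.25 ± 0.03, adjusted p = 2.73e-05) and TUBB3 (-0.24 ± 0.03, adjusted p = 5.38e-05). TUBB6 did not pass the test (-0.03 ± 0.04 SE, edgeR adjusted p = 0.702). TUBA1C (-0.09 ± 0.03, edgeR adjusted p = 0.0455) and TUBB2B (-0.51 ± 0.18, adjusted p = 0.0496) were close to the threshold, and missed it in 17 and 14 of 23 other settings, among them the leave-out of any single COMB library (edgeR adjusted p up to 0.19 and 0.167). Without DMSO replicate 1 and SGI replicate 3, TUBB2B gave -0.38 and an edgeR adjusted p of 0.0555, and 8 members passed. The median log2 fold change of the members was -0.31 against EVER and -0.18 against SGI, beside 0.00076 and 0.0011 over all genes.

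Against EVER, SGI was higher in TUBA1A (0.16 ± 0.04 SE, edgeR adjusted p = 0.012) and lower in 5 members, beside 13.0% of all genes called higher and 9.51% called lower. The members that were lower were TUBB4B (-0.38 ± 0.03 SE, edgeR adjusted p = 8.73e-08), TUBA1C (-0.28 ± 0.03), TUBA1B (-0.27 ± 0.03), TUBB6 (-0.26 ± 0.04) and TUBB (-0.17 ± 0.03). TUBA4A, TUBB2A, TUBB2B and TUBB3 did not pass, with log2 fold changes between -0.07 and 0.06. Without EVER replicate 2, TUBA1A gave 0.13 and an edgeR adjusted p of 0.0769. These 3 comparisons share libraries with each other.

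The interaction was taken as the log2 level of COMB plus DMSO minus EVER minus SGI. It is 0 where the log2 changes with the single drugs add up to that with both, and it is made of the changes against DMSO by which the members were chosen, so its p-values are not independent of that choice. Of all genes, 23.6% had an interaction called higher and 22.1% called lower. TUBA1A had -1.79 ± 0.06 (SE, edgeR adjusted p = 1.87e-12): the log2 changes against DMSO were 1.42 and 1.58 with the single drugs and 1.20 with both. TUBA4A (-0.28 ± 0.06, edgeR adjusted p = 0.00068) and TUBB3 (-0.35 ± 0.05, adjusted p = 1.39e-05) were also lower than additive. TUBA1C was higher (0.31 ± 0.04 SE, edgeR adjusted p = 1.62e-05), that is, its decrease in COMB was smaller than the sum of its decreases. TUBA1B, TUBB, TUBB2A, TUBB2B, TUBB4B and TUBB6 did not pass. Of these, TUBB (-0.02 ± 0.04), TUBB2A (-0.03 ± 0.06) and TUBB4B (0.02 ± 0.04) had estimates within 1 SE of 0, and TUBB6 (0.14 ± 0.06, edgeR adjusted p = 0.0666) passed without DMSO replicate 1 and SGI replicate 3 (0.13, adjusted p = 0.0121), without SGI replicate 3 alone (0.18, 0.0128) and without DMSO replicate 3 alone (0.18, 0.0332), and also with library totals, RLE normalization, no filter on low counts or DESeq2 (adjusted p 0.0358 to 0.0493).

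**Figure D5:**
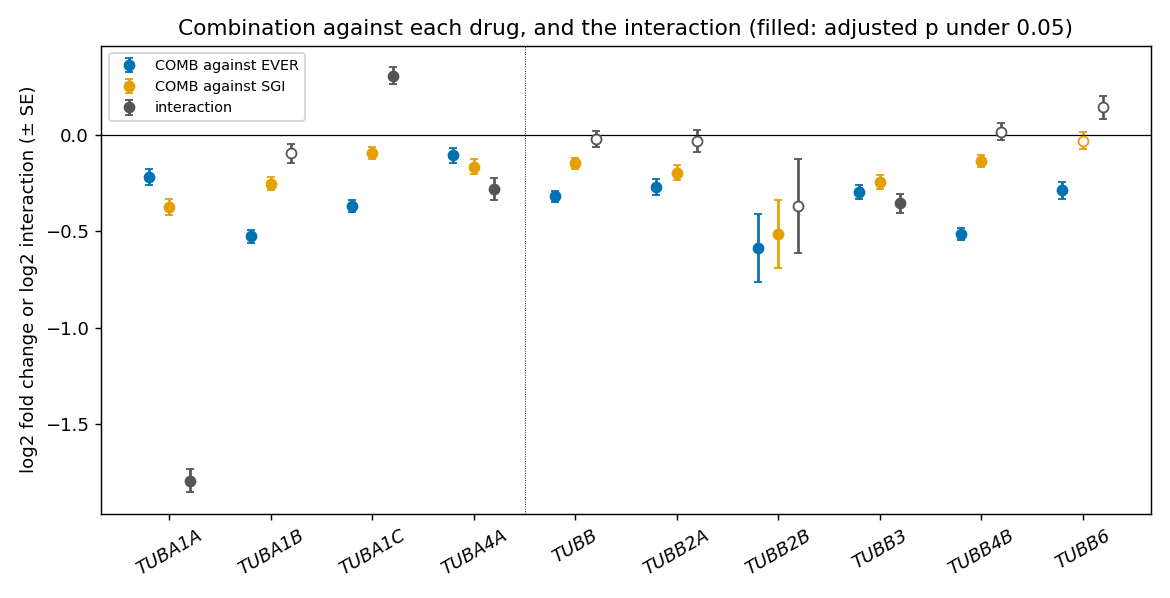
Log2 fold change of COMB against EVER and against SGI, and the log2 interaction, for each tubulin gene; points are estimates, bars are ± SE, and filled points passed an adjusted p of 0.05 (edgeR quasi-likelihood test, Benjamini-Hochberg). All points against EVER are filled and below 0, the point of TUBB6 against SGI is open, and the interaction of TUBA1A lies at -1.79.

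The 250 bases before each RefSeq start site (GRCh38.p14) were searched on both strands for the promoter motifs known as the CCAAT box, the GC box with the letters GGGCGG, and the TATA box with the letters TATAAA. TUBA1A held the CCAAT box once on each strand and no GC box. TUBA1B held the GC box 3 times and no CCAAT box. Neither held a TATA box, and in GENCODE v29 the window of TUBA1A lies mostly in the first exon of a longer TUBA1A transcript. Windows of other members also reach past the start of the principal transcript, among them window 3 of TUBA1C, window 2 of TUBB6 and that of TUBB4B. TUBB4B, which went down with every treatment, held the CCAAT box 3 times and no GC box. TUBA1C, which also went down, held the CCAAT box once in each of its 3 windows, but windows 1 and 2 overlap and hold the same box. Window 3 of TUBA1C also held the GC box 2 times. Counting any of their 15 windows, 7 of the 10 members held the CCAAT box, 8 the GC box and 1 the TATA box. Over all 35116 windows of this length, counted by window and not by gene, 32.0% held the CCAAT box, 42.6% the GC box and 10.7% the TATA box.

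The genes with the most similar pattern were found by the distance between the 3 log2 fold changes against DMSO, over 11455 genes whose mean count was 50 or more. Nearest to TUBA1A were CELSR3, DHRS12, SSPN, ZNF596 and COL11A2, at distances of 0.096 to 0.18. Nearest to TUBA1C were BLMH, COQ2, CKAP5, CHSY3 and CEP20, at distances of 0.022 to 0.041. CKAP5, a polymerase that adds tubulin dimers to microtubule plus ends, had log2 fold changes of -0.41, -0.66 and -0.79 in EVER, SGI and COMB, beside -0.40, -0.67 and -0.77 for TUBA1C.

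The listed genes that fold tubulin were mostly lower with every treatment. This list and the other gene lists below were drawn up with earlier results of these data known. The genes named from them are mainly those with the smallest p in COMB. Their counts and p-values are therefore not independent of that choice and are given as a description. Of 23 such genes, 15 were lower and 3 higher in EVER, 18 lower and 2 higher in SGI, and 17 lower and 4 higher in COMB, with median log2 fold changes of -0.39, -0.52 and -0.44. Over all genes tested, the shares called lower were 29.2%, 30.6% and 33.4% in EVER, SGI and COMB, the shares called higher were 27.2%, 32.0% and 32.8%, and the medians were 0.0013, 0.017 and 0.0074. All 8 subunits of the CCT chaperonin, which folds newly made tubulin and actin, were lower in each of the 3 comparisons. CCT5 went from 1164 ± 38.4 CPM (SD, n = 3) in DMSO to 664 ± 7.94 in EVER, 633 ± 23.2 in SGI and 625 ± 4.42 in COMB (COMB log2 fold change -0.90 ± 0.04 SE, edgeR adjusted p = 2.55e-13). CCT7 (-0.72 ± 0.03 in COMB, edgeR adjusted p = 3.39e-12), CCT3 (-0.75 ± 0.04, adjusted p = 1.19e-11) and CCT6A (-0.68 ± 0.04, adjusted p = 1.63e-10) were close behind.

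The 6 prefoldin subunits, which hand new chains to CCT, had 3 lower and 1 higher in EVER, 5 lower in SGI, and 5 lower and 1 higher in COMB. The 7 tubulin cofactors and related proteins, which join alpha to beta, had 3 lower and 2 higher in EVER, 4 lower and 2 higher in SGI, and 3 lower and 3 higher in COMB. These lists are short, and the cofactor counts in particular stand beside 27.2% to 33.4% of all genes called in each direction. All 8 CCT subunits had a positive interaction that passed the test, with a median of 0.50. Their decreases in COMB were thus smaller than the sum of the single-drug decreases, as they were in TUBA1C. Of all genes, 23.6% had an interaction called higher and 22.1% called lower. Among the 6 prefoldin subunits 2 were called higher and 0 lower, and among the 7 cofactors and related proteins 3 were called higher and 1 lower.

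Among 25 tested genes for tubulin modification and autoregulation, 9 were higher and 5 lower in EVER, 10 and 5 in SGI, and 8 and 6 in COMB. Beside 27.2%, 32.0% and 32.8% of all genes called higher and 29.2%, 30.6% and 33.4% called lower, the higher calls were above the share of all genes in EVER and SGI and near it in COMB, and the lower calls were below it, with no test of these differences. VASH1, which removes the terminal tyrosine of alpha tubulin, went from 3.96 ± 0.63 CPM (SD, n = 3) in DMSO to 10.3 ± 0.968 in COMB (log2 fold change 1.39 ± 0.11 SE, edgeR adjusted p = 6.13e-09). TTLL1, a polyglutamylase subunit, rose by 1.28 ± 0.12 (edgeR adjusted p = 3.4e-08), TTLL3, a glycylase, by 1.28 ± 0.17 (adjusted p = 3.14e-06), and the tubulin deacetylase HDAC6 by 0.34 ± 0.05 (adjusted p = 6.16e-06), all in COMB. Each of these 4 genes was also higher in EVER and in SGI. On the log2(FPKM + 1) scale, which understates changes of low genes, limma-trend gave 0.69 for VASH1 and 0.84 for TTLL3 in COMB. TTC5, the factor that starts tubulin autoregulation, did not pass the test in any group (in EVER it passed without DMSO replicate 2 and under upper-quartile normalization, edgeR adjusted p = 0.044 and 0.0118), with log2 fold changes of 0.16 ± 0.07, -0.09 ± 0.08 and -0.04 ± 0.08 (SE) in EVER, SGI and COMB. That result covers TTC5 only. Other genes of the list are named here after their values were seen. CNOT11 was lower in EVER, SGI and COMB (-0.16, -0.13 and -0.34, edgeR adjusted p = 0.0126, 0.0359 and 8.67e-06). SCAPER was higher in SGI and COMB (0.34 and 0.30, adjusted p = 0.0065 and 0.0124) and did not pass in EVER (0.14, 0.237). In COMB, TTLL5 (-0.40, adjusted p = 3.42e-05) and TTLL12 (-0.38, 1.89e-05) were lower.

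Of 37 tested genes for microtubule dynamics and binding, 16 were lower and 11 higher in EVER, 15 and 9 in SGI, and 18 and 9 in COMB. Over all genes 29.2%, 30.6% and 33.4% were called lower and 27.2%, 32.0% and 32.8% higher, so the lower calls were above the share of all genes and the higher calls near or below it, with no test of these differences. TPX2, which activates Aurora A on spindle microtubules, went from 455 ± 9.62 CPM (SD, n = 3) in DMSO to 221 ± 3.66 in COMB (log2 fold change -1.04 ± 0.03 SE, edgeR adjusted p = 2.79e-14). KIF2C, a kinesin that takes microtubule ends apart, fell by 0.99 ± 0.04 on the log2 scale (edgeR adjusted p = 2.42e-13), CKAP5 by 0.79 ± 0.04 (adjusted p = 4.12e-12) and its partner TACC3 by 0.697 ± 0.037 (adjusted p = 1.14e-11). All 4 were lower in EVER and in SGI as well. Other genes of the list rose by more, named here after their values were seen: the microtubule-binding proteins MAP2 (2.17 ± 0.12 in COMB, edgeR adjusted p = 1.77e-11), MAP1A (1.73 ± 0.17, adjusted p = 5.79e-08) and CLIP2 (1.17 ± 0.07, adjusted p = 7.78e-11).

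The other tubulin genes were few and low, apart from gamma tubulin. Of the 7 that were tested, 4 were lower and 1 higher in EVER, 2 lower and 1 higher in SGI, and 3 lower and 1 higher in COMB, and 3 were called in EVER without EVER replicate 1. With 27.2% to 33.4% of all genes called in each direction, these counts of so few genes are given as a description. TUBG1, the main gamma tubulin of the centrosome, went from 146 ± 9.58 CPM (SD, n = 3) in DMSO to 94.6 ± 3.33 in EVER, 98.1 ± 13.4 in SGI and 85.5 ± 1.91 in COMB (COMB log2 fold change -0.77 ± 0.07 SE, edgeR adjusted p = 2.24e-08). Its close relative TUBG2 was higher in COMB (0.42 ± 0.09, edgeR adjusted p = 0.00035), and the delta tubulin TUBD1 was lower (-0.64 ± 0.10, adjusted p = 1.59e-05). The sequence that TUBG1 and TUBG2 share was not measured here, so the division of reads between them is uncertain. TUBB4A, with 22 to 82 counts a library, fell by 1.08 ± 0.28 in COMB (edgeR adjusted p = 0.0022; -0.35 with limma-trend on log2(FPKM + 1)), and had a log2 fold change of 0.03 ± 0.25 in SGI. The epsilon tubulin TUBE1 was lower in EVER only (-0.34 ± 0.12, edgeR adjusted p = 0.026), with 0.18 ± 0.12 in both SGI and COMB. For TUBE1, DMSO replicate 1 was the highest of its group (8.96 CPM), and EVER replicate 2 (6.23 CPM) lay above DMSO replicate 2 (6.10 CPM). TUBA8 and TUBAL3, with at most 71 counts, did not pass in any group, and TUBA3D, TUBB1 and TUBB8 had at most 10 counts and were not tested.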

How the data were processed

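Wild-type 786-O cells were profiled by RNA sequencing in 12 libraries, 3 per group. The deposited tables hold raw counts (whole numbers, by gene symbol) and FPKM computed by the authors for the same libraries. FPKM was 0 exactly where the count was 0, and the gene length implied by both tables was the same in every library (2232 bases for TUBA1A). The aligner and counter are not given in the sources used here. The submitters' processing notes name the mouse builds GRCm38 and mm10 although the symbols are human, so the build is unclear. The paper and the labels also name different library kits.

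The members and gene lists were chosen with earlier results of these data known. Counts were normalized by TMM (factors 0.990 to 1.01), filtered with filterByExpr and fitted in edgeR 4.0.16 (R 4.3.3) with glmQLFit over all 4 groups, and adjusted by Benjamini-Hochberg at 0.05. Printed CPM are TMM-normalized. Fold changes used a prior count of 0.125. DESeq2 1.42.0, limma-trend 3.58.1 on log2(FPKM + 1) or log2(FPKM + 0.1) and the other settings of the closing section were alternatives. On simulated COMB against DMSO counts over 12744 genes, edgeR recovered 199 of 200 genes changed 2-fold, with 13 false calls. The simulation held no smaller changes, which most members had. In the data 32.8% of genes were called higher and 33.4% lower in COMB, far more than were changed there. It therefore does not show how well such data are called. Named genes were all members, the 4 genes of each list with the smallest p in COMB against DMSO among those called with a mean of at least 50 counts, TTC5, the other tubulins with a count, and the 5 genes nearest to TUBA1A and to TUBA1C. CCT subunits other than the 4 named are given as a count. Genes named beyond this rule are marked as named after their values were seen. Replicate numbers did not pair libraries across groups (18 same-number pairs, correlations -0.30 to 0.068). Sequences are from GENCODE v29 and RefSeq, matched by symbol for all 10 members. Some coding sequences are not reported here.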

Additional observations from a re-analysis of the deposited data

Results flagged for a closer look

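The interaction of everolimus and SGI-1027 passed the test in 4 of the 10 tubulin genes, that is, the change with one drug differed according to whether the other was present (edgeR quasi-likelihood test, Benjamini-Hochberg over all genes). Over all genes tested, 23.6% had an interaction called higher and 22.1% called lower, so the count of tubulin genes is near that of all genes. The interaction is made of the 3 changes against DMSO by which these genes were chosen, so its values and p-values are not independent of that choice. TUBA1A had a log2 interaction of -1.79 (SE 0.06, edgeR adjusted p = 1.87e-12). Everolimus alone changed it by 1.42 on the log2 scale against DMSO, and everolimus added to SGI-1027 changed it by -0.37 against SGI. TUBB3 had -0.35 (SE 0.05, adjusted p = 1.39e-05) and TUBA4A had -0.28 (SE 0.06, adjusted p = 0.00068). TUBA1C had 0.31 (SE 0.04, adjusted p = 1.62e-05), in the opposite direction. Groups of 3 libraries are too small for a test of single outlying libraries.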

How the results depend on the processing

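The alpha and beta sums stayed below DMSO in every alternative, with log2 differences between -0.15 and -0.13 for alpha and between -0.13 and -0.12 for beta in EVER when each library was left out in turn. Upper-quartile normalization, under which the median log2 fold change of all genes was 0.063 to 0.075, gave smaller differences: -0.067, -0.30 and -0.51 for alpha and -0.050, -0.28 and -0.42 for beta in EVER, SGI and COMB. Plain library totals gave -0.46 for beta in COMB. Of the 690 alternative values of single members against DMSO, 12 moved by more than the spread between libraries, all under upper-quartile normalization. That spread was the SE scaled up from 3 libraries to 1. Leaving out 1 of 3 libraries can hardly shift a group mean that far, so the count says little about the leave-outs.

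With the study's cut-off for changed genes (unadjusted p under 0.05 and a log2 change of at least 1), 0 members passed in each of the 3 comparisons between treated groups, where edgeR at adjusted p called 10 against EVER, 9 against SGI and 6 for SGI against EVER (unadjusted p under 0.05: 10, 9 and 6, and DESeq2: 10, 9 and 6). The interaction kept 1. Under that cut-off the folding list had 0 genes in EVER, SGI and COMB (18, 20 and 21 by edgeR, the same counts with the replicate block), the modification list 3, 5 and 6 (14, 15 and 14), the dynamics list 1, 3 and 6 (27, 24 and 27) and the other tubulins 0, 0 and 1 (5, 3 and 4), by the construction of the cut-off. Leaving out each library in turn gave 3 to 5 of the other tubulins called in EVER, with 3 without EVER replicate 1. It gave 8 to 10 members called against EVER, 7 to 9 against SGI, 5 to 6 for SGI against EVER and 4 to 5 for the interaction.

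With the replicate block, 9 members were called against EVER, 7 against SGI and 4 for the interaction, and TUBA4A against EVER (adjusted p = 0.071), TUBA1C against SGI (0.0625) and TUBB2B against SGI (0.0628) lost their calls. The numbers do not pair libraries, and the block changed no other call of a member. TUBA1A for SGI against EVER missed the threshold without EVER replicate 2 (edgeR adjusted p = 0.0769), and TUBB2B against EVER missed it without EVER replicate 2 (0.14), without COMB replicate 3 (0.0602) and with limma-trend on log2(FPKM + 1) (0.0508). The interaction of TUBB6 passed in 7 of 22 alternatives (adjusted p 0.0121 to 0.0493), among them DESeq2, library totals, RLE normalization and no filter on low counts, and TTC5 in EVER passed under upper-quartile normalization (0.0118). On the log2(FPKM + 1) scale the log2 changes of low genes were smaller by construction: 0.54, 0.56 and 0.69 for VASH1 in EVER, SGI and COMB, and -0.30 and -0.35 for TUBB4A in EVER and COMB. TUBA1B passed for the interaction under upper-quartile normalization (edgeR adjusted p = 0.00566). The combined leave-out of DMSO replicate 1 and SGI replicate 3 was added after seeing the data. No called value of a member changed sign. Of the values near 0, TUBA4A in COMB against DMSO went down to -0.013, TUBB6 against SGI up to 0.0054, TUBB2B for SGI against EVER up to 0.20 and the interaction of TUBB4B down to -0.056. Depth limits TUBB2B most, with 206 to 486 counts a library.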
